A study of Mus musculus with 5 samples.

Results

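The libraries taken 0.5 h and 1.5 h after the induction of neural differentiation were compared, 1 library each, over all 34714 sites of the deposited table. A site was called gained where it held 0 entries at 0.5 h and 1 or more at 1.5 h, and lost in the reverse case, and sites covered in both libraries were compared by their number of entries. Of the 34714 sites, 3092 were gained, 8.91% of all sites, and 234 were lost, 0.674% of all sites. Of the 8034 genes named at these sites, 269 were gained, 3.35% of all genes, and 46 were lost, 0.573% of all genes. A gene took the values of the site that had the most entries on average in the 5 libraries of the series. As each time had 1 library and so no replicate check, no difference given here was tested, and what would repeat in a further culture is not known.

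The cells were C17.2, an established multipotent neural stem cell line of the mouse, labelled with the strain CD1 x C57BL/6. They were grown in DMEM/F12 with serum and antibiotics, and neural induction was started by a change to Knockout DMEM with the GlutaMAX and N2 supplements, a medium for which the labels list no serum. Loss of serum and neural induction therefore came together and cannot be told apart. The other 3 libraries were taken at 0, 1 and 2 h, and are used here only to place the 0.5 h and 1.5 h pair. The series' own design text speaks only of a baseline, 1 h and 2 h, while the labels of the 2 libraries compared give 0.5 h and 1.5 h. The libraries are those of 1 line, and a series of cultures sampled along time is not a set of replicates.

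Chromatin was assayed by ATAC-seq, in which a transposase cuts and tags DNA where nucleosomes and bound proteins leave it exposed. Active and poised promoters in mammalian cells commonly keep an exposed stretch just before the transcription start, most broadly at promoters rich in CpG. A promoter can be exposed with little or no transcription, so exposure is not expression. Neural progenitors that leave the cell cycle and begin to differentiate are known to depend on Wnt, Notch and BMP signals and on enzymes that set and remove histone marks.

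Each value is a whole number, from 0 to 9 in the 2 libraries compared, and was read as the number of intervals in a library's BED file that lie over a short site, called entries here. This reading is an inference from the numbers. Entries are not reads. The depth of the libraries is unknown, and a site at 0 had no interval over it, which does not show that it was closed. The 0.5 h library held 56773 entries in all and covered 58.7% of the sites, and the 1.5 h library held 65824 entries, 1.16 times as many, and covered 66.9%. The other libraries held between 42527 and 59437 entries. The number of reads behind each library could move with these totals, and its part in the results was not tested.

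Promoter sequences are shown for 4 gained genes (Mxra7, Pygo1, Adam23 and Lhx2), for 1 gene with more entries at 1.5 h (Prkd1) and for 3 with fewer (Trak1, Lsm7 and Slc49a4). They were chosen because in each of them the counted site lay inside the stretch printed. The start base of these promoters can differ from the 5′ end used for distances elsewhere. The Mxra7 and Adam23 sites lie before the start base, but 66.5 and 96.5 bp inside their genes by that 5′ end. Each runs 5′ to 3′ on the strand of the gene from 150 bases before the start base to 30 bases from it on, taken from RefSeq promoters on GRCm38.p6, with the bases of the counted site in capitals. The Mxra7 stretch is chr11:116828017-116828196 on the minus strand, Pygo1 is chr9:72925495-72925674 on the plus strand, Adam23 is chr1:63445741-63445920 on the plus strand and Lhx2 is chr2:38339131-38339310 on the plus strand. The Prkd1 stretch is chr12:50649220-50649399 on the minus strand, Trak1 is chr9:121297352-121297531 on the plus strand, Lsm7 is chr10:80855180-80855359 on the minus strand and Slc49a4 is chr16:35769341-35769520 on the minus strand.
Mxra7: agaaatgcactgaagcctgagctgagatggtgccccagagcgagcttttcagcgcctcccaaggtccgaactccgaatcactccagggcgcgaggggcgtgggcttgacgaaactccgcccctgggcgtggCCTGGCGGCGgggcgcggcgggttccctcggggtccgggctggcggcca
Pygo1: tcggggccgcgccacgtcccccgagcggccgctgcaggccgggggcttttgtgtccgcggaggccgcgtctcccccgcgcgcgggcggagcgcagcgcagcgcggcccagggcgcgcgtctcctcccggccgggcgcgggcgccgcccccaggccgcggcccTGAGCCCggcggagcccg
Adam23: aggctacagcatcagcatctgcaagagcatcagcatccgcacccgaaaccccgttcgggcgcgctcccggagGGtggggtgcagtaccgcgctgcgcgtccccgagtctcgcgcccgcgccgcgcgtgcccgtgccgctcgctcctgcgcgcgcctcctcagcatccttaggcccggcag
Lhx2: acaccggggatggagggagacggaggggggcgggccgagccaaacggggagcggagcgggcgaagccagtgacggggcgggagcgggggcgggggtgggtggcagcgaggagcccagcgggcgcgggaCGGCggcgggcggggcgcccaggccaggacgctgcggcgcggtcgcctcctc
Prkd1: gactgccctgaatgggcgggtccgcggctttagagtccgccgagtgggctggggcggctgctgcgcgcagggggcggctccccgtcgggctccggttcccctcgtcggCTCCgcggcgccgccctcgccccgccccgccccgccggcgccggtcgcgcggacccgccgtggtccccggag
Trak1: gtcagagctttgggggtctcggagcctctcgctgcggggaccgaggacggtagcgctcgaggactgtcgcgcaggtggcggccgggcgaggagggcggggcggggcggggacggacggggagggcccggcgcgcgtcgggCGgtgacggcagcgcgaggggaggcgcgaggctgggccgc
Lsm7: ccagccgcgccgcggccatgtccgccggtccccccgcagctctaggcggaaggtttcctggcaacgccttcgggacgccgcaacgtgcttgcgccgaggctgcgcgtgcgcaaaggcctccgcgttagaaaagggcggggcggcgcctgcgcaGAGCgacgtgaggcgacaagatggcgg
Slc49a4: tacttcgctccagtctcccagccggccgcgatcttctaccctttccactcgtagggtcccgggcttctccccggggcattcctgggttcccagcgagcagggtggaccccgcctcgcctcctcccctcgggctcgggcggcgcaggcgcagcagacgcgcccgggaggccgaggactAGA
All 8 are rich in CpG, from 18 CpG in the Mxra7 stretch to 35 in the Pygo1 stretch, and 7 of the 8, all but Adam23, hold GGGCGG on either strand, the core of the GC box that SP factors bind. The genes were picked for their place in the promoter after their values had been seen, so what they share is no result about gained genes.

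Gained sites far outnumbered lost ones, and most of them lay in regions already covered at 0.5 h. There were 13.2 gained sites for each lost site and 5.85 gained genes for each lost gene. Of the 14349 sites without an entry at 0.5 h, 21.5% were gained (Wilson 95% interval 20.9 to 22.2%), and of the 20365 sites with an entry, 1.15% were lost (1.01 to 1.3%). Of 1883 uncovered genes 14.3% were gained (12.8 to 15.9%), and of 6151 covered genes 0.748% were lost (0.561 to 0.996%). These intervals cover counting error only, and neighbouring sites are not independent. With coverage set at 2 or more entries, 566 genes were gained and 347 lost, so lost genes were a larger part of those that changed state by that measure, and 4008 sites were gained and 1175 lost.

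Most differences at the edge of coverage were small. Of the gained sites 695 held a single entry at 1.5 h, 1033 held 2, 612 held 3 and 752 held 4 or more, up to 7. Of the lost sites 94 had held a single entry at 0.5 h, 89 had held 2 and 24 had held 4 or more. Just inside and outside the limit, 695 sites went from 0 to 1 entry and 94 from 1 to 0, while 926 went from 1 to 2, 803 from 2 to 1 and 1039 stayed at 1. The asymmetry was thus sharpest at the step from 0 and slight at the next step.

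**Figure D1:**
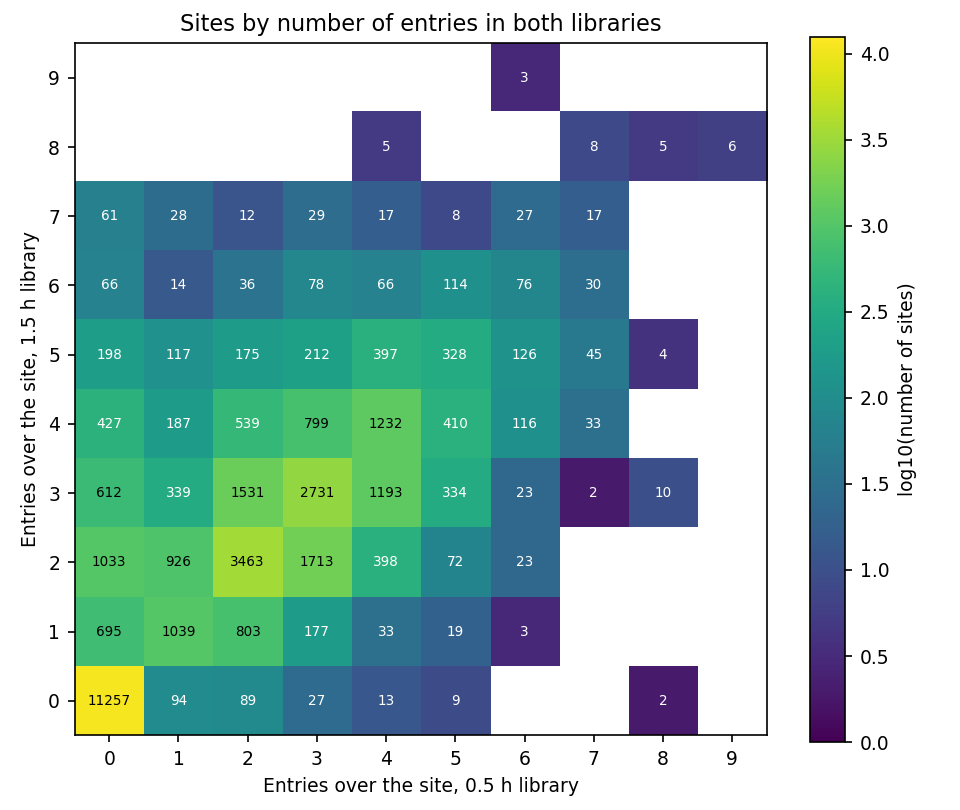
Number of sites for each pair of values, with entries in the 0.5 h library on the horizontal axis, entries in the 1.5 h library on the vertical axis and colour on a log10 scale. Gained sites fill the first column above 0 (3092 sites) and lost sites the bottom row right of 0 (234 sites), while 11257 sites held 0 in both and the rest lie close to the diagonal.

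Where sites had entries in both libraries, they split evenly. Of these 20131 sites, 5667 held more entries at 1.5 h, 5573 held fewer and 8891 held the same number, and 84.3% differed by at most 1 entry. Their mean was 2.8 entries at 0.5 h and 2.87 at 1.5 h. Large differences leaned upward, with 701 sites higher by 3 or more and 222 lower by 3 or more. Of the 9051 entries by which the 1.5 h total exceeded the 0.5 h total, gained sites contributed 8118, lost sites took away 466, and sites covered in both added a net 1399. Over all sites, 8759 held more entries at 1.5 h (25.2%) and 5807 held fewer (16.7%).

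At the level of genes the 2 directions were nearly equal in number. More entries were found at 1.5 h for 1795 genes (22.3%) and fewer for 1670 genes (20.8%), and 4569 were equal. The higher genes were thus 51.8% of those that differed. When each library was scaled to its total of entries, 1793 genes were higher and 4627 lower, so the higher share was 27.9%, since genes with equal whole numbers then counted as lower. That scaling moved the median of genes covered in both by -0.14 on the log2 scale, and an excess of higher genes therefore depends on leaving the totals unscaled. At least 2-fold more entries, on the log2(entries + 1) scale, were found for 428 genes (5.33%) and at least 2-fold fewer for 150 genes (1.87%). The first of these counts was 229 after scaling, and the second stayed at 150.

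Most gained sites lay in stretches of chromatin already covered at 0.5 h, and most lost sites in stretches still covered at 1.5 h. When sites at most 500 bp apart were merged, the table held 9217 regions, of which 290 were gained whole, 53 were lost whole, 6329 were covered in both libraries and 2545 in neither. The 3092 gained sites lay in 1091 regions, and 2296 of them (74.3%) lay in regions that already held an entry at 0.5 h. The median distance from a gained site to the nearest site covered at 0.5 h was 189 bp. The sites covered in neither library lay a median 39888.5 bp from one. Lost sites were placed much like gained ones. Of them 66.7% lay in regions covered in both libraries, and their median distance to a site covered at 1.5 h was 283.5 bp. Of the 1078 genes that held a gained site, 829 had another site covered at 0.5 h. In these counts most gained sites belonged to a gene already covered, with 249 of the 1078 genes covered at none of their sites at 0.5 h, and the width of the intervals themselves is not in the table.

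Gains were spread over the chromosomes and over the promoter. Between 500 bp before and 750 bp after the annotated 5′ end of the gene, 22.8 to 27.8% of the uncovered sites were gained, against 13.8% of those more than 5000 bp inside the gene. Of the covered sites, 0.338% were lost from 250 to 100 bp upstream and 0.382% within 100 bp upstream, and the share reached 2.46% between 500 and 750 bp downstream. Gained sites lay a median 385 bp downstream of the 5′ end, lost sites 531.5 bp, sites covered in both 239.5 bp and sites covered in neither 549 bp. Among the autosomes and X, the share of uncovered sites that were gained ran from 15.1% on chromosomes 7 and X to 33.6% on chromosome 3, and all 25 sites of chromosome Y were at 0 in both. Sites of a gene share their source, so these shares rest on far fewer genes than sites.

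**Figure D2:**
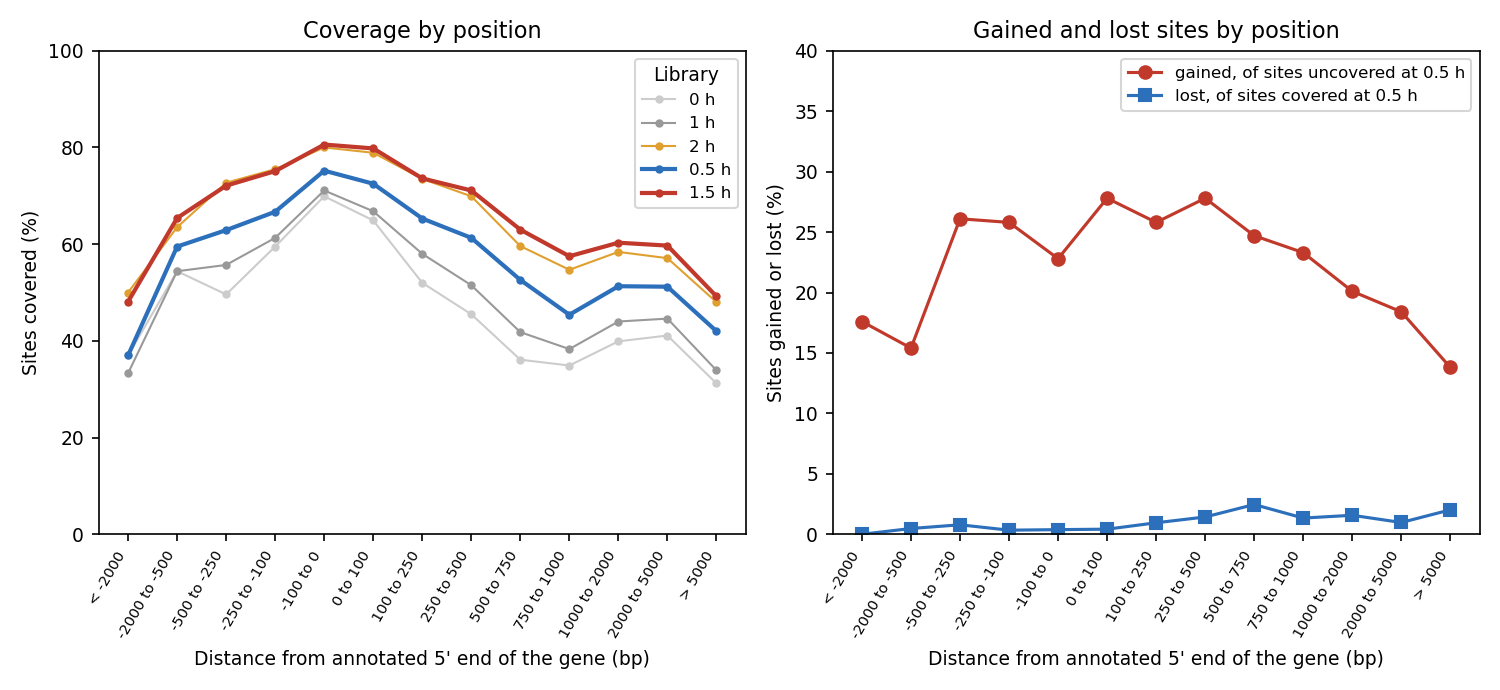
Left, the share of sites with an entry in each of the 5 libraries (%) against the distance from the annotated 5′ end of the gene (bp, in bins); right, the share of sites uncovered at 0.5 h that were gained and of sites covered at 0.5 h that were lost (%). The 1.5 h line lies above the 0.5 h line in every bin, and the gained share reaches 27.8% in the bins from 0 to 100 and from 250 to 500 bp downstream.

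The libraries not used to choose the sites held entries at gained sites mainly at 2 h. Entries at 2 h lay over 75.3% of the 3092 gained sites, against 8.25% at 0 h and 8.18% at 1 h. Among all 34714 sites these shares were 65.7%, 47.6% and 51.2%, in the same order. Gained sites were thus somewhat above all sites in the 2 h library and far below them in the earlier ones. Of the sites with entries in both libraries of the pair, 98.2% also had one in the 2 h library. Sites covered in neither library of the pair had entries in 5.11% of cases in the 2 h library, 0.648% in the 0 h library and 0.222% in the 1 h library. Of the gained sites, 1966 (63.6%) were covered at 2 h and at neither 0 nor 1 h, and 691 (22.3%) had no entry in any other library. Lost sites had lower shares than all sites in the 0, 1 and 2 h libraries. Of the lost sites 26.9% were covered at 0 h, 15.8% in the 1 h library and 47.9% in the 2 h library. The 0.5 h library alone held entries over 88 of these 234. Gained genes were covered in 20.1% of cases before induction, in 16.4% after 1 h and in 69.5% after 2 h, beside 72.8%, 72.5% and 78.4% of all genes. The site of a gene was chosen by its mean over all 5 libraries, so for genes these shares are not independent of that choice. Most gained sites were thus also covered in the library that followed, and few in the 1 h library, which was taken between the pair.

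**Figure D3:**
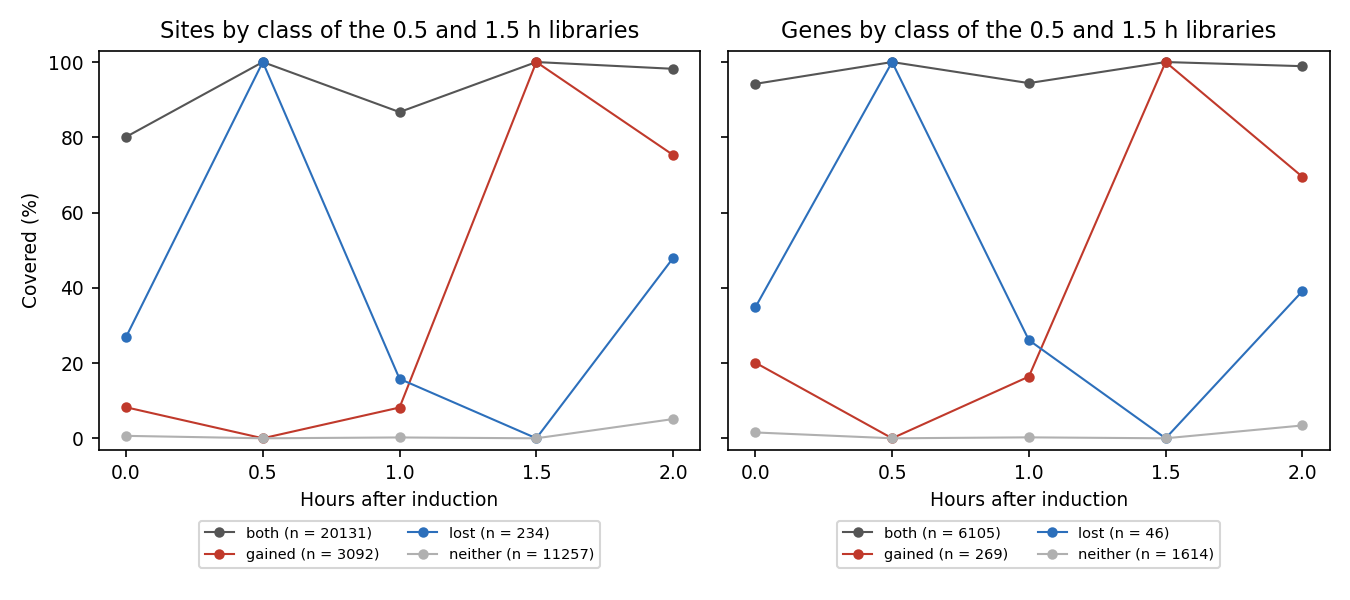
Share of sites (left) and genes (right) with at least 1 entry (%) against hours after induction, for those covered in both of the 0.5 h and 1.5 h libraries, gained, lost or covered in neither; the values at 0.5 and 1.5 h follow from the definition of the classes. For gained sites the 2 h share of 75.3% stands far above those at 0 h (8.25%) and 1 h (8.18%). Among all sites these shares were 65.7%, 47.6% and 51.2%, in the same order.

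Among the 10 pairs of libraries, the 0.5 h and 1.5 h pair had few changes of coverage and a middling share of equal values. It had 3326 sites that changed between uncovered and covered, the third lowest of the pairs, and 315 such genes, the second lowest. Equal values were held by 58.0% of its sites, the fifth highest share of the pairs, and by 56.9% of its genes, the fourth highest. The 1.5 h and 2 h pair had the fewest (1807 sites), and the 0 h and 1.5 h pair the most (6983 sites). The 0.5 h and 1 h pair differed at 3152 sites, but 278 were covered only at 1 h and 2874 only at 0.5 h. The pairs share libraries, and these numbers are a description.

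A set of genes was covered at 0.5 and 1.5 h while their sites held 0 at both 0 and 1 h. There were 163 such genes among all 8034, with a median of 2 entries at both times of the pair. The 0 h and 1 h libraries held the fewest entries in all, 42527 and 45254, and the part of this was not tested. Jun, the AP-1 subunit that serum and stress induce within minutes, held 6 entries at 0.5 h, 5 at 1.5 h and 0 in each other library. Vasp, which promotes actin filament growth, held 4 at both times and 0 otherwise. Kmt2d, a histone H3 lysine 4 methyltransferase, held 3 and then 4 and 0 otherwise. These are 3 of the 20 genes that were covered at these 2 times and in no other library, and were picked after their values were seen, except Jun. Nr3c1, the glucocorticoid receptor, held 0, 5, 0, 7 and 7 entries at 0, 0.5, 1, 1.5 and 2 h. That site lies 28828.5 bp inside the gene. Of the 16 sites of Nr3c1, 6 were gained and 8 were covered at both times. Several of those 8 held 1 entry at 0.5 h and 7 at 1.5 h, a larger rise than at the counted site. Of the 163 genes, 59 held more entries at 1.5 h, 31 fewer and 73 the same number.

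The gained genes with the most entries at 1.5 h were Fzd8 and Pfn1, with 7 each. Fzd8, a Frizzled receptor for Wnt ligands, had no entry in the 3 earliest libraries and 7 in each of the 1.5 and 2 h libraries. The Fzd8 site lies 833.5 bp inside the gene. Pfn1, profilin, which binds actin monomers, held 0, 0, 1, 7 and 0 entries over the 5 times. That site is on chromosome 11 at 70654634, 2165 bp inside the gene, and 2 further sites of Pfn1 went the other way, from 3 entries at 0.5 h to 1 at 1.5 h. Pfn1 is therefore gained at 2 of its 4 sites, and by its highest value over all sites it held 3 entries at 0.5 h and 7 at 1.5 h. By that measure 249 genes were gained in place of 269. The 269 genes lay in 264 separate regions, so a few share a promoter region with a neighbour.

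Mxra7 and Usp6nl, the latter an activator of the GTPase of RAB5, each held 0 entries at 0, 0.5 and 1 h, 5 at 1.5 h and 4 at 2 h. Nfat5, the transcription factor of the response to osmotic stress, held 5 at 1.5 h and 0 in every other library. Adam23, a metalloprotease-like membrane protein without protease activity, held 0, 0, 0, 4 and 4 entries over the 5 times, and all 4 of its sites were gained. Dlg5, a scaffold of cell junctions, held 0, 0, 1, 4 and 5. Camk2g, a calcium and calmodulin dependent kinase, Sec24b, a cargo-binding part of the COPII coat, and Rfx1, a transcription factor, held 4 entries at 1.5 h, 4 at 2 h and 0 before. The Rfx1 site lies 3777.5 bp inside the gene. Marchf11, a membrane-bound ubiquitin ligase, held 4 and then 3. Cnnm1, of the cyclin M family of membrane proteins, held 4 and then 1. Of these 12 genes, 10 still had entries at 2 h at the counted site, and Pfn1 and Nfat5 did not. The counted site was chosen by its mean over all 5 libraries, 2 h among them.

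Lost genes were fewer and held fewer entries. The highest was Ubtd1, a ubiquitin domain protein, with 5 entries at 0.5 h and 0 in each other library. Mdga1, a membrane-anchored protein that binds neuroligins, held 4 at 0.5 h, 0 at 1.5 h and 4 again at 2 h. Its other site, 5.5 bp from the 5′ end, held 4 and then 1, so Mdga1 was not lost at every site. Chst7, a sulfotransferase that acts on glycosaminoglycans, held 3 at 0 h, 4 at 0.5 h and 0 from 1 h on. Sobp held 4 at 0.5 h alone, 8853.5 bp inside the gene. In the same region, 446 bp away, the site of 9030612E09Rik held 4 at 0.5 h and 1 at 1.5 h. That site lies 30.5 bp from the 5′ end of 9030612E09Rik, so the region was not lost whole. Kif5c, a kinesin heavy chain of neurons, held 3, 3 and 2 entries at 0, 0.5 and 1 h and 0 at 1.5 and 2 h. Eif4a1, the RNA helicase of translation initiation, held 3 at 0.5 and 1 h and 0 otherwise. Zdhhc18, a palmitoyltransferase, held 0, 3, 1, 0 and 2 over the 5 times, while a site just upstream of the gene held 1 at both times of the pair, so it was not lost at every site. The 5 others named by rule, Chga, Sestd1, Lrrk1, Zbtb8a and Zfp641, each held 2 entries at 0.5 h. Of the 12, 5 were covered again at 2 h at the counted site (Mdga1, Zdhhc18, Chga, Sestd1 and Lrrk1).

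**Figure D4:**
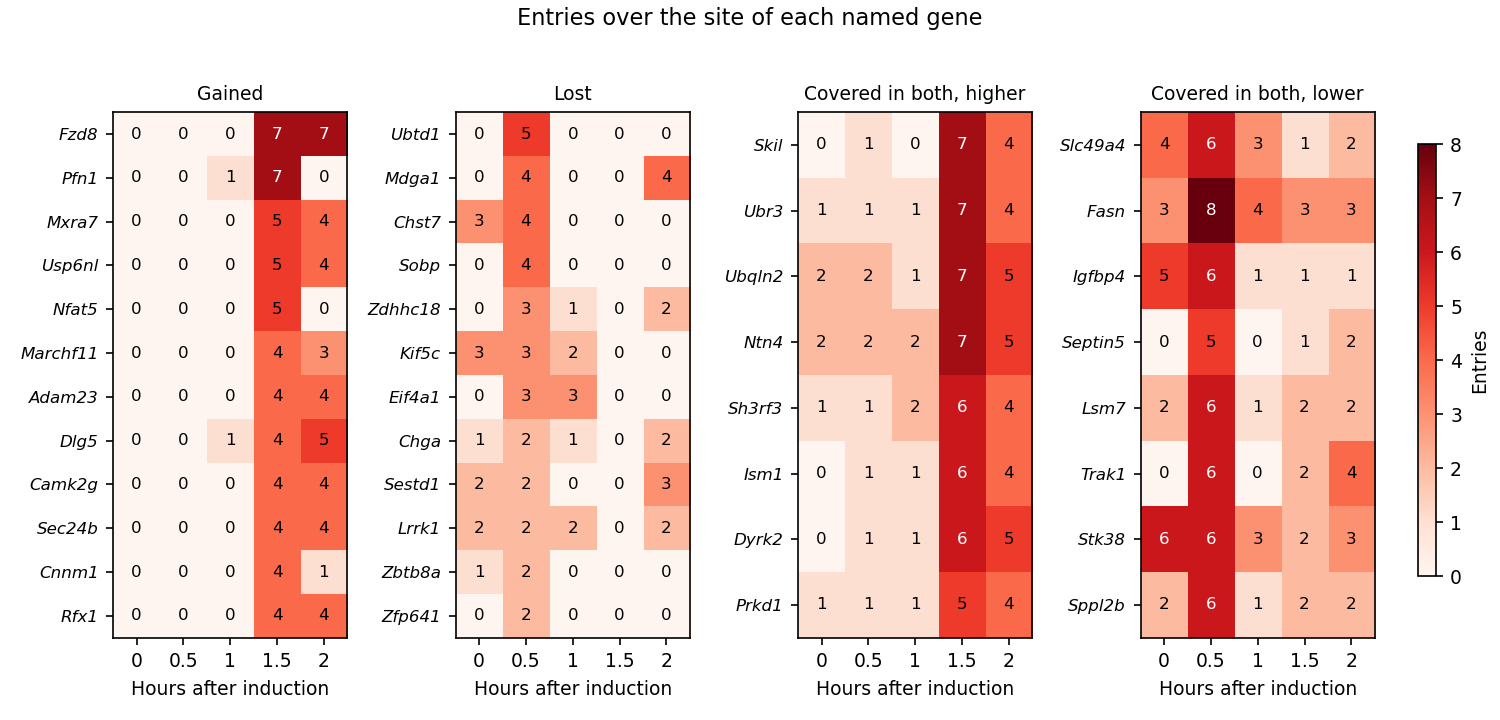
Entries over the counted site of each gene named by rule (rows) at 0, 0.5, 1, 1.5 and 2 h after induction (columns), for gained genes, lost genes, and genes covered in both libraries with the largest rise or the largest fall; colour and printed numbers give the entries. Gained genes reach 4 to 7 entries at 1.5 h, and lost genes held 2 to 5 at 0.5 h.

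Among genes covered in both libraries, the largest increase was at Skil and Ubr3, each with 1 entry at 0.5 h and 7 at 1.5 h. Skil encodes SnoN, which represses SMAD-dependent transcription downstream of TGF-beta, and its site held 0, 1, 0, 7 and 4 over the 5 times. It lies on chromosome 3 from 31094796 to 31094805, 257.5 bp upstream of the gene. All 16 sites of Skil held 7 entries at 1.5 h, 7 of them with 1 entry at 0.5 h and 9 with none. Ubr3, a ubiquitin ligase, held 1, 1, 1, 7 and 4 over the 5 times, but other sites of it held 3 entries at 0.5 h, and by its highest value over all sites its difference was 4. Ubqln2, a shuttle to the proteasome, held 2 at 0.5 h and 7 at 1.5 h, and Ntn4, a secreted netrin, also held 2 and then 7. Sh3rf3, a RING domain ubiquitin ligase, Ism1, a secreted protein, and Dyrk2, a kinase, each went from 1 to 6. The sites counted for Ism1 and Dyrk2 lie 5261.5 and 20620 bp inside their genes. Prkd1, protein kinase D1, went from 1 to 5 at a site in the promoter printed above. All 8 held 4 or 5 entries at 2 h at the counted site. That site was chosen by its mean over all 5 libraries, so the 2 h values are not independent of the choice. The Skil sites at 31094282 and 31094342 held 7 entries at 1.5 h and 0 in every other library.

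The largest decreases were 5 entries, at Slc49a4, Fasn and Igfbp4. Slc49a4, a lysosomal membrane transporter, held 4, 6, 3, 1 and 2 entries over the 5 times. Fasn, the fatty acid synthase, held 8 at 0.5 h and 3 or 4 in every other library, so its 0.5 h value stood above all others. Igfbp4, a secreted protein that binds insulin-like growth factors, held 5 at 0 h, 6 at 0.5 h and 1 in each later library. Trak1, the adaptor that couples mitochondria to kinesin, held 0, 6, 0, 2 and 4. Lsm7, a subunit of the ring that binds U6 RNA, and Sppl2b, an intramembrane protease, held 6 and then 2 at sites 56 bp apart with equal values in all 5 libraries, and are 1 observation. Stk38, a kinase of the Hippo-related NDR family, held 6 at 0.5 h and 2 at 1.5 h. Septin5, a septin of synaptic vesicles, held 5 and then 1. Of its 7 sites, 2 were gained, and by its highest value over all sites its difference was -3. Of the genes covered in both, 125 were higher by 3 or more and 53 lower by 3 or more, and 8 against 3 differed by 5 or more.

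Gained sites were stacked along some genes, chosen here after their values were seen. Rybp, a subunit of the non-canonical Polycomb complex PRC1, held 26 gained sites of its 30 within 919 bp of chromosome 6, from 100286723 to 100287641. Every one of these 26 held 7 entries at 1.5 h, and the 4 sites covered at 0.5 h, which held 4 entries, lay at the upstream edge and also held 7 at 1.5 h. Sfmbt1, a Polycomb-like protein, had 18 of 20 sites gained at 4 entries, and Dock8, an exchange factor for CDC42, all 15 sites at 2. Ranbp9 had 18 of 26 gained at 1 entry, with none covered in any other library. Kdm7a, a histone demethylase, had 10 of 21 sites gained at 7 entries, inside a stretch whose outer sites already held 1 or 3 at 0.5 h. Of the 1078 genes with a gained site, 425 had 1, 453 had 2 to 4 and 200 had 5 or more. On the lost side Cacna1a, a calcium channel subunit, had 7 of 27 sites lost and Trim71, an RNA-binding ubiquitin ligase of early development, had 6 of 33.

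The genes of known pathways were counted in lists chosen with earlier results of these data in view, and are to be read against the 22.3% of all genes that were higher, the 20.8% that were lower, the 3.35% that were gained and the 0.573% that were lost. No list had a median difference other than 0 among those with 3 or more measured genes, and the median over all genes was also 0. Counted sites were not limited to gene starts. Those of Smarcd3, Dusp16, Hdac7, Pfkfb2, Rarg and Axin1 lie 22358, 14285.5, 12683, 11768, 9688 and 7780 bp inside their genes. Enzymes of histone methylation had 17 of 42 measured genes higher (40.5%) and 9 lower, with 5 gained and 0 lost, where 3.35% of all genes were gained and 0.573% lost. Kmt2b, an H3 lysine 4 methyltransferase, held 2 entries at 1.5 h and 0 in every other library. Kmt2a, of the same family, held 3 at 1 and 1.5 h and 0 otherwise. Dot1l, the H3 lysine 79 methyltransferase, held 1 at 1.5 and 2 h. Kdm6b, which removes the Polycomb mark on H3 lysine 27, held 4 entries before induction, none at 0.5 and 1 h, 4 at 1.5 h and none at 2 h. That site lies 10329 bp inside Kdm6b. Nsd1, an H3 lysine 36 methyltransferase, held 5, 0, 0, 3 and 4 over the 5 times. Kdm6b and Nsd1 were thus covered before induction, uncovered at 0.5 and 1 h, and covered again at 1.5 h.

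Among chromatin remodellers and histone chaperones, 20 of 51 measured genes were higher (39.2%) and 11 lower, and 3 were gained, which is not far from the 3.35% of all genes. Smarca2, an ATPase of the BAF complexes, went from 1 to 5 entries, and Rsf1, a subunit of a nucleosome spacing factor, from 6 to 3. The 3 gained genes, Dpf1 and Smarcd3 of the neural BAF complexes and Anp32e, a chaperone that removes H2A.Z, each held 1 entry at 1.5 h. Enzymes of histone acetylation were even, with 6 of 25 higher and 6 lower. Kat2b, an acetyltransferase, went from 2 to 6 and Hdac7 from 2 to 5, while Hdac5 went from 3 to 1.

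In the Wnt list, 11 of 35 measured genes were higher (31.4%) and 7 lower, and it held 5 gained and 2 lost genes, beside 3.35% gained and 0.573% lost among all genes. The gained ones were the ligand Wnt7b, with 2 entries at 1.5 and 2 h, the receptors Fzd8 and Fzd7, the scaffold Axin1, and Pygo1, a coactivator of beta-catenin. Pygo1 held 1, 0, 1, 3 and 3 entries over the 5 times, so its counted site was uncovered at 0.5 h alone. All 5 of its sites were gained, and only 2 of them were covered at 0 h and at 1 h. Fzd7 and Axin1 each held a single entry at 1.5 h alone. The lost ones were 2 of the TCF/LEF factors that bind beta-catenin. Tcf7l1 held 2 entries at 0.5 h alone, and Tcf7 held 0, 1, 0, 0 and 4 over the 5 times. Another of that family, Lef1, went from 3 to 7, having held 7 at 0 and 1 h.

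In the TGF-beta and BMP list, 11 of 33 were higher (33.3%) and 5 lower, with none gained or lost. Beside Skil, the BMP antagonist Nog went from 1 to 4 entries, with 0 at 0 and 1 h and 1 at 2 h. The ligand genes Tgfb1, from 3 to 1, and Bmp6, from 3 to 1, were lower, the former by 1 only when its highest value over all sites was used. In the Notch list, 8 of 24 were higher (33.3%) and 3 lower. Mib1, which ubiquitinates Notch ligands, and Rfng, which glycosylates Notch, each went from 1 to 3, while the receptor gene Notch1 stayed at 1 and the target Hes1 at 1. In the list of insulin, PI3K and mTOR signalling, 12 of 26 were higher (46.2%) and 4 lower. The receptor Igf1r went from 3 to 5 at its counted site and the adaptor Irs2 from 2 to 4, against the fall at Igfbp4. Of the 11 sites of Igf1r, 9 were gained, each with 5 entries at 1.5 h. In the list of FoxO and growth factor withdrawal targets, which shares Irs2 and Rictor with the insulin list, 7 of 17 were higher (41.2%) and 3 lower. Cdkn1a, the p21 inhibitor of cyclin-dependent kinases, went from 3 to 6.

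Among genes of neural identity, gained ones were found only among the progenitor genes. Of 20 measured neural progenitor genes 5 were higher, near the 22.3% of all genes, and 2 lower, and 3 were gained, where 3.35% of all genes were. Nes, the intermediate filament nestin, held 2 entries at 1.5 h and 0 in every other library, at 2 of its 4 sites. The homeobox genes Lhx2 and Emx2, which pattern the forebrain, each held 2 at 1.5 h, 1 at 2 h and 0 before. Pax6, Msi1, Zic1 and Sox3 held 0 in all 5 libraries. Of 29 measured proneural and neuronal transcription factors 4 were higher and 6 lower, with 0 gained, and 14 held 0 in all 5 libraries. Sox4 went from 2 to 6, while Neurog1 went from 2 to 1 and Neurog2 from 4 to 5. In the list of neuronal cytoskeleton and synapse 4 of 21 were higher and 2 lower, with 0 gained. Of the 12 progenitor markers 6 were measured, with 9 entries in sum at 0.5 h and 11 at 1.5 h, and Cdh2, N-cadherin, held 7 at both. Of the neuron markers Map2 held 2 at both times and Rbfox3 0. Of the markers of other cell types, Olig1, Olig2, Mbp, Nfia and Epcam held 0 in all 5 libraries. At both times of the pair Pdgfra held 4, Cx3cr1 2 and Nkx2-2 1, while Nfib, an astrocyte marker, held 3 and then 4 and Twist1, a mesenchymal marker, 3 and then 6. Exposure of a promoter does not name a cell type, and the markers measured were too few to check the label.

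Immediate early genes of the serum response were close to even, with 6 of 25 higher, 7 lower, none gained and 1 lost. Junb, an AP-1 subunit, held 1 entry at 0 and 0.5 h and 0 after, and Nr4a1, an orphan nuclear receptor, went from 4 to 2. Egr1 held 4 at both times, Fos 3 and then 4. Among the MAP kinase phosphatases and Sprouty inhibitors, 6 of 16 were higher and 6 lower. The Sprouty gene Spry2 went from 2 to 5, and the phosphatases Dusp4, Dusp6 and Dusp16 went from 7 to 5, from 5 to 3 and from 5 to 3. In the list of stress response and mRNA decay 4 of 18 were higher and 6 lower, with Zfp36l1, which promotes the decay of mRNAs, going from 4 to 1. Of 27 nuclear hormone receptors and coregulators 7 were higher and 6 lower, with Rarg, a retinoic acid receptor, going from 1 to 5 and Ppara from 4 to 1.

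Of the metabolic and cell cycle lists, all but glycolysis had more lower than higher genes. In G1/S and DNA replication 7 of 30 were higher and 11 lower (36.7%), with Ccne2, cyclin E2, going from 7 to 4 and E2f4 from 3 to 6. In mitosis and spindle 1 of 21 was higher and 3 lower, and 17 were equal. In the respiratory chain and ATP synthase 3 of 23 were higher and 6 lower, in the tricarboxylic acid cycle 3 of 15 and 5, and in mitochondrial protein import and dynamics 3 of 16 and 6. Apart from Trak1, no member of these 3 lists differed by more than 1 entry. In mitochondrial RNA handling and genome maintenance 3 of 18 were higher and 5 lower. Tfam, which packages mitochondrial DNA, held 2 at both times. Mterf1a, a mitochondrial transcription termination factor, was lost, with 1 entry at 0.5 h alone. Of 12 cholesterol synthesis genes 2 were higher and 4 lower. Glycolysis had 5 of 11 higher and 2 lower, with Pfkfb2 going from 3 to 6, and Gapdh held 6 entries at 0 h and 0 at both times of the pair. In DNA repair 6 of 22 were higher and 3 lower, and in splicing factors and RNA helicases 11 of 42 and 9. Ptbp1, the splicing repressor that is known to fall as neurons form, held 5 at 0.5 h, 1 at 1.5 h and 0 in every other library.

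**Figure D5:**
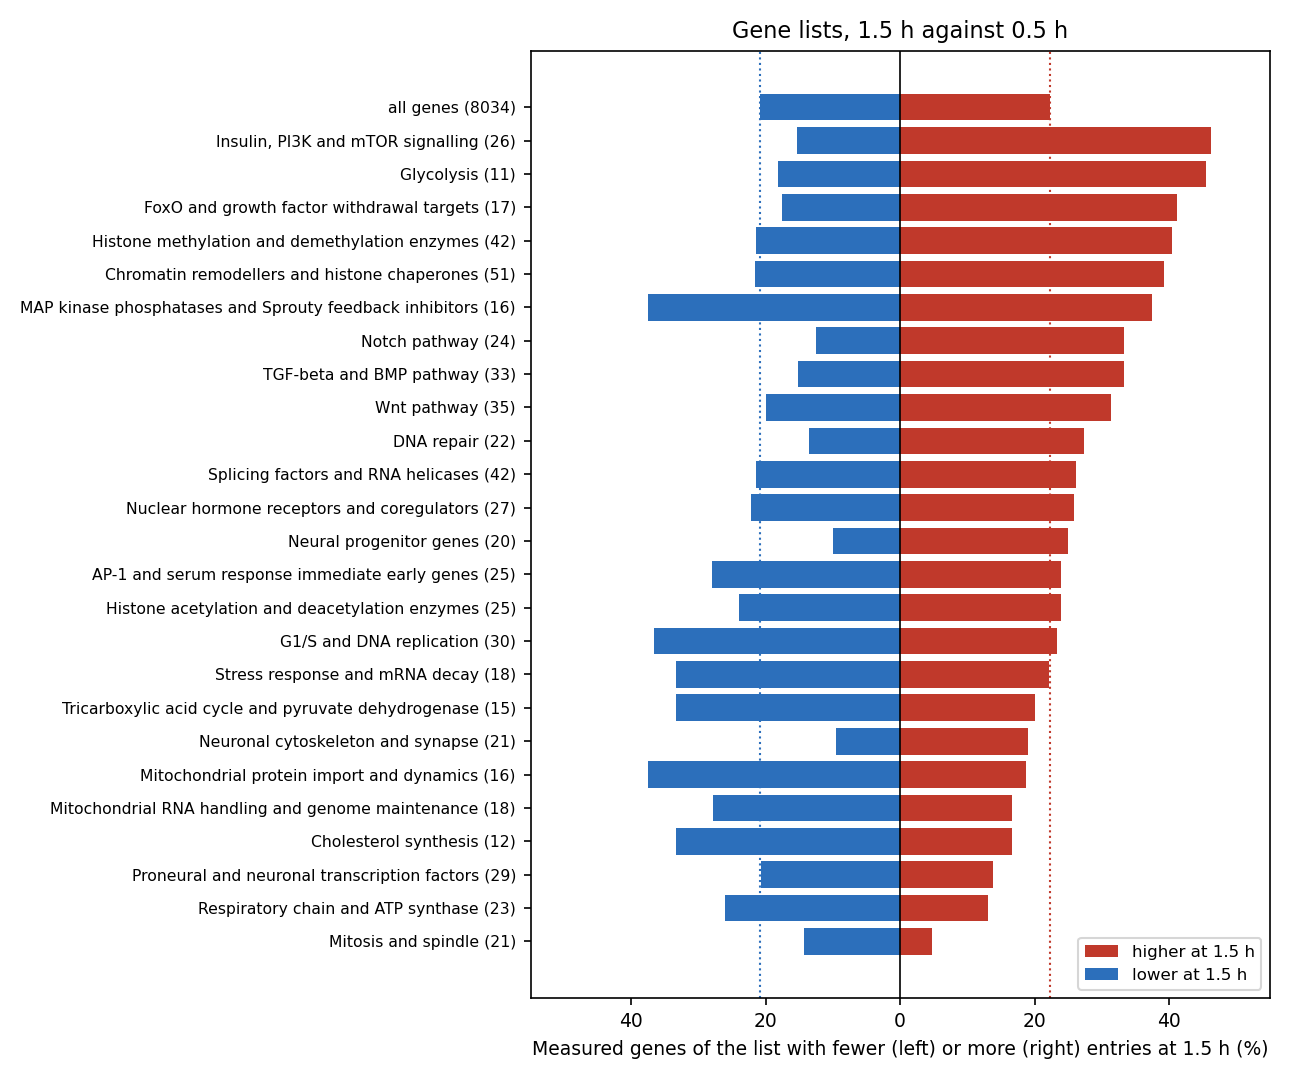
Share of the measured genes of each list with more entries (right) or fewer entries (left) at 1.5 h than at 0.5 h (%), with the number of measured genes in brackets; dotted lines mark all genes, 22.3% higher and 20.8% lower. Lists are ordered by the share higher, from 46.2% in insulin, PI3K and mTOR signalling to 4.76% in mitosis and spindle.

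Most promoters of gained genes reached the CpG ratio given below, 82.1%, but so did 84.0% of the 5917 promoters matched to measured genes. The ETS letters were held by 14.9% of promoters of gained genes, against 23.8% of those of measured genes and 27.2% for genes covered in both. RefSeq promoters of 300 bases, from 250 before the start to 50 after it, were matched by symbol to 201 of the 269 gained genes and 35 of the 46 lost genes. The counted site lay inside that window in 84 of the 201 and 9 of the 35, so most of these promoters do not hold it. No limit was set on the distance between promoter and counted site. A ratio of observed to expected CpG of 0.6 or more was found in 82.1% of genes gained, 88.2% of genes covered in both and 65.7% of genes covered in neither library, and in 35.8% of all 32851 promoters of the table. CCGGAA, read on both strands as a core of ETS sites, was present in these 3 classes at 14.9%, 27.2% and 10.5%, and in 14.9% of all promoters. TGANTCA, the AP-1 letters, was present in 1.99%, 3.66% and 5.0%, and in 7.81% of all promoters. GGGCGG was present in 73.6%, 76.9% and 65.1%, and in 35.7% of all promoters. The CRE letters TGACGTCA were present in 1.99%, 3.49% and 1.73%, with 1.79% of all promoters, and the E-box CACGTG in 6.47%, 11.0% and 9.42%, with 7.15% of all. TATAAA was present in 6.47%, 6.14% and 9.62%, with 13.6% of all, and CCAAT in 25.4%, 35.1% and 31.9%, with 37.4% of all. Among the 5917 promoters of measured genes, GGGCGG was present in 74.8%, the AP-1 letters in 3.82% and the CRE letters in 3.18%. The E-box was present in 10.6% of these 5917, TATAAA in 6.79% and CCAAT in 34.2%. Among the 35 promoters of lost genes, 82.9% reached the CpG ratio, 11.4% held the ETS letters, 0.0% the AP-1 letters, 11.4% the CRE letters, 77.1% GGGCGG, 5.71% the E-box, 11.4% TATAAA and 37.1% CCAAT. Both strands were read, and each motif was scored only as present or absent in a promoter, also where different motifs overlapped. A match in letters is not a bound site. The classes differ in how often and how strongly they were covered, and the differences in letters were not tested.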

How the data were processed

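ATAC-seq values of C17.2 cells at 0.5 and 1.5 h were compared, with 1 library per time. Per the submitters' processing notes, the tools were Bowtie2, MACS2 and deepTools and the builds GRCm38 and mm10. No version, setting or order is given in the sources used here, nor how reads were shifted or duplicates treated. Per the file headers, the deposited table has a column named after a BED file for each library. The values the authors deposited are whole numbers with no stated unit, read here as interval counts, neither reads nor normalised signal.

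Sites are 1 to 23 bp wide (median 5). Of them 33952 carry the table's own gene symbol, and 7551 of 8034 genes were matched to RefSeq GRCm38.p6, from which distances to the 5′ end were taken, except where a site lay more than 5000 bp outside its match. Ties between sites of a gene went to the site nearest the 5′ end. Python 3.11.15, pandas 2.3.3, numpy 2.4.6, scipy 1.17.1 and matplotlib 3.10.9 were used. The counting was checked on a simulated table with gained and lost genes set in advance, which does not bear on how reliable a call is. No test, SD or p-value is possible with 1 library per time, and Wilson 95% intervals are given for shares.

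Genes were named by rule: the 12 gained and the 12 lost genes with most entries, the 8 largest differences in each direction among genes covered in both, the 4 largest differences and every gained or lost gene of each list, and a fixed set (such as Jun, Nes and Nr3c1). Symbols on 20 or more sites, Gm and Rik symbols were not ranked. A few genes that the rule names are not reported here. The members, lists and markers were chosen with earlier results of these data known. The tie rule, the 5000 bp limit, the position bins, the motifs and CpG limit, the counts of gained sites per gene, the genes covered at 0.5 and 1.5 h but not at 0 and 1 h, the printed sequences and the list members named outside the rule were chosen after seeing the values. Read depth is unknown, so no floor or error can be given for a single value. The alternatives are a threshold of 2 entries, merged regions, other ways to choose a gene's site, pseudocounts, a filter and a scaling.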

Additional observations from a re-analysis of the deposited data

How the results depend on the processing

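With coverage set at 2 or more entries, 566 genes were gained and 347 lost, in place of 269 and 46, and 1175 sites were lost, in place of 234; 4008 sites were gained, in place of 3092. Within 1000 bp of the 5′ end, 178 genes were gained and 29 lost, as fewer genes were counted. Merged regions numbered 290 gained and 53 lost. Genes at least 2-fold higher numbered 229 with a pseudocount of 2, 94 among genes at or above the median of 2.2 entries and 229 after scaling to totals, in place of 428. Genes at least 2-fold lower numbered 45 with a pseudocount of 2 and 54 with that filter, in place of 150. With a difference of 2 or more, 4262 sites were higher and 1432 lower. Gained exceeded lost, and higher exceeded lower, under each of these settings, while counts of any difference between genes turned after scaling to totals, with 1793 higher and 4627 lower. With ties between sites of a gene given to the first row of the table, an alternative added after seeing the data, 268 genes were gained and 47 lost, of which 264 and 45 were the same genes. Of 160 named genes, 152 kept their difference when the highest value over all sites was used, 8 moved and 0 reversed. No paired analysis was possible because each time has 1 library. With the read depth unknown, no single difference can be given an error.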
